A study of Sus scrofa with 12 samples.

Results

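Cuts assigned to 5 genes of the extracellular matrix, COL3A1, COL14A1, LAMA2, LAMC1 and MMP14, were examined in the degradome of pig loin muscle. All rows of the 12 library tables that list 1 of these genes in a gene cell were taken, 23 rows by printed name. A further 4 rows list only the identifier ENSSSCG00000004207, which the same tables name LAMA2 elsewhere, and were added. The 5 genes thus hold 27 of the 19855 rows (0.136%), against 1410 targets listed in all. They were listed in 7 of the 12 libraries.

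Muscle fibres sit in a mesh of fibrillar collagen and are each wrapped in a basement membrane whose laminins bind the dystroglycan and integrin receptors of the fibre. COL3A1 encodes the chain of collagen III, a fibrillar collagen of the sheaths around fibres and bundles, and COL14A1 the chain of collagen XIV, which attaches to the surface of fibrils. LAMA2 encodes the laminin alpha chain typical of the muscle basement membrane, and LAMC1 the gamma chain found in most laminins. MMP14 encodes a membrane-bound protease that cleaves fibrillar collagen and activates another matrix protease. MicroRNAs of animals mostly lower translation and stability of their targets without cutting them, so a listed cut is a candidate event.

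The tables come from parallel analysis of RNA ends (PARE), which captures the 5′ ends of cut transcripts, in 12 loin samples of female pigs kept alike and slaughtered at 100 ± 2 kg (day 180 in the labels). Hampshire, Pietrain and Polish Large White each gave 4 libraries, 2 titled low MM with light shear force and 2 titled high MM with heavy shear force. The labels do not state that each sample is a separate animal. The labels leave MM unexplained, although muscle mass is in the title of the series. The tab names of the deposited workbook exchange high and low for the 4 Pietrain libraries, so both readings are given. The tables list retained interactions alone, so an unlisted gene was not measured at 0. The p-values computed here measure only the spread between these libraries.

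Read depth is not given, so the normalization factors are used here as an unchecked guide to it, and by them depth was uneven. Each table's normalization factor takes a smaller or a larger value, or both in 5 tables, and its inverse, summed over the classes, ran from 2.40 to 36.9. Rows with the smaller factor are called deeper and the others shallower, a reading of the factor and not a measured depth. Rows of the deeper class were present in all 6 libraries titled low MM and in 1 of the 6 titled high MM. The split is less complete by the tab names. These count both Pietrain libraries titled low MM, which hold deeper rows, as high MM. They count Pietrain high MM replicate 1, which holds none, as low MM. Skeletal muscle markers were widely listed (13 of 18, CA3 and TPM1 in all 12 libraries), whereas 1 of 12 fibroblast markers (VIM, in 1 library) was, and PDGFRA, THY1 and CD34 were not listed. Listing does not measure expression, so these shares do not show how much RNA of matrix-producing cells the samples held. In bulk muscle, the number of such cells and their RNA per cell cannot be told apart.

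COL3A1 (ENSSSCG00000016034, chromosome 15) was the matrix gene listed in the most libraries. All of its 12 rows were paired with miR-769-5p. They were overlapping windows on 2 positions, 93588037 and 93589005, which lie 968 bases apart. A position here is the sum of window start and cleavage position, on a genome build not given in the sources used here. Windows on the first position were listed in 4 libraries. The second position was listed in 3, but in Polish Large White low MM replicate 1 without a gene name.

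The evidence at COL3A1 was thin in every library. PAREsnip grades a cut from category 0, the sole highest peak on its sequence, to category 4, a fragment with an abundance of 1. In Pietrain low MM replicate 1 both positions had a fragment abundance of 1 and category 4, and the fragment matched 25 positions. In Pietrain low MM replicate 2 the first position had an abundance of 1 and category 4, with 11 matching positions. Polish Large White low MM replicate 1 gave the first position an abundance of 1 (category 4) among rows of the shallower class and 2 (category 3) among rows of the deeper class, with 13 matching positions in both. In Polish Large White low MM replicate 2 both positions had an abundance of 2 and category 3, with 9 matching positions. No library gave COL3A1 an abundance above 2 or a category better than 3. Within a library and depth class the pair of positions had the same abundance and the same number of matching positions, so they are not shown to be separate fragments.

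The weighted abundance divides the fragment among its matching positions, and the normalized value multiplies that by the table's factor, whose scale is not given. Normalized abundance at COL3A1 was 0.00249 in Pietrain low MM replicate 1 and 0.0222 in Pietrain low MM replicate 2. It was 0.0190 in Polish Large White low MM replicate 1, where windows of the deeper class gave 0.00562, and 0.00954 in Polish Large White low MM replicate 2. Values of the shallower class stood above those of the deeper class, so the order of libraries follows the class of their rows. The alignment score, a penalty that is lower for better pairing, was 4 in every COL3A1 row. The deposited p ran from 0.02 to 0.05. Of the 16 windows on strand 1 at these positions, 4 carried no gene name, 3 of them in Polish Large White low MM replicate 1 and 1 in Pietrain low MM replicate 2.

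By the titles COL3A1 was listed in 4 of 6 low-MM libraries and 0 of 6 high-MM libraries. Relabelling the libraries of each breed gave a two-sided exact permutation p of 0.0556 and a Benjamini-Hochberg adjusted p of 1 over 310 targets. The 0.0556 was the lowest this test could give COL3A1 with its libraries in these breeds. It could not have passed, so the test cannot show whether the MM groups differ. None of the 310 targets passed (0% called at an adjusted p of 0.05), and 0 had an unadjusted p under 0.05. No target could have an MM p below 0.00926, which is too high for a single target to pass adjustment over 310. By the tab names COL3A1 stood at 2 and 2 (exact permutation p = 1), so the lean to low MM disappears when the Pietrain groups are exchanged. The 8 libraries of the other breeds gave 2 with low MM and 0 with high MM (exact permutation p = 0.333). A pattern of at least 4 low-MM and 0 high-MM libraries was shown by 2 of the 310 targets (0.645%), COL3A1 included. All 4 libraries that list COL3A1 held rows of the deeper class, and the part of depth was not tested. Among rows of the shallower class alone COL3A1 was listed in 2 of 4 low-MM and 0 of 6 high-MM libraries that have such rows (exact permutation p = 0.111). The exact permutation p-values of 0.333 and 0.111 were likewise the lowest these libraries allowed.

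By breed COL3A1 was listed in 2 of 4 Pietrain, 2 of 4 Polish Large White and 0 of 4 Hampshire libraries. No difference between breeds was called at COL3A1 (exact permutation p = 0.418 over 34650 partitions, adjusted p = 1; 0% of targets called, 2 with an unadjusted p under 0.05). PTP4A2, listed in all 4 Pietrain libraries and in no other, had an exact permutation p of 0.00606 and did not pass adjustment either. As a gene in 4 libraries cannot be split further, COL3A1 alone could not have passed. The test thus cannot show whether the breeds differ at COL3A1. Absence from Hampshire with at least 2 libraries in each of the other breeds was shown by 6 of the 310 targets (1.94%). Both Hampshire low-MM libraries had rows of the deeper class and did not list it.

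**Figure D1:**
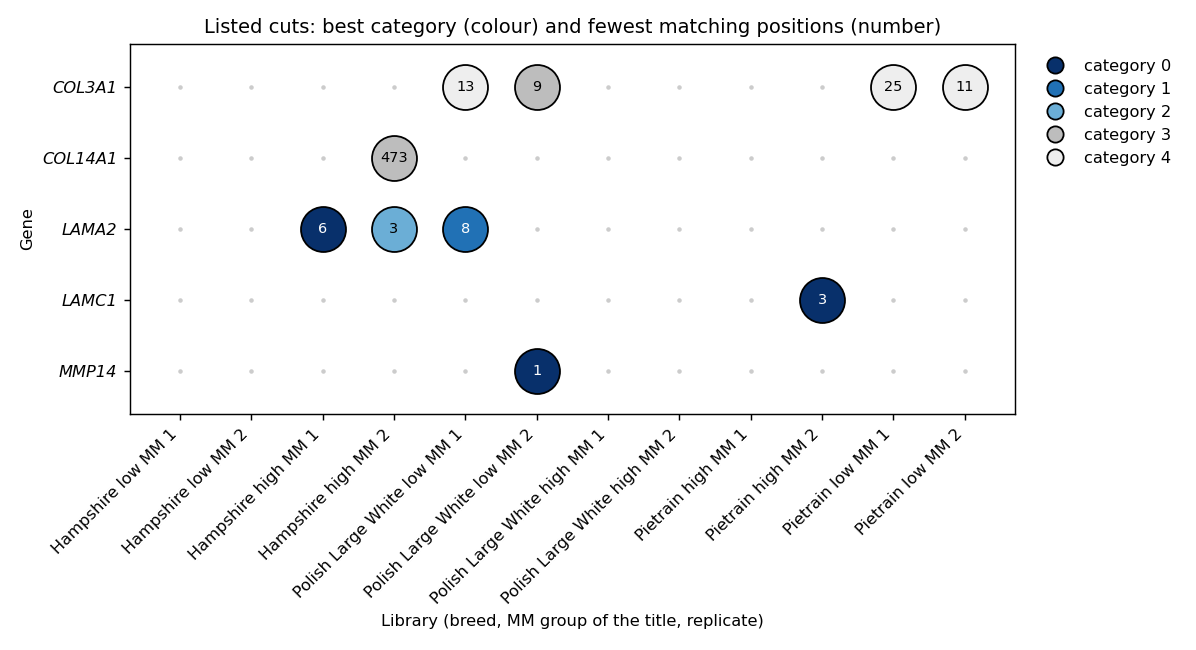
Each row is a gene and each column a library, named by breed, MM group of its title and replicate. A filled circle marks a listed cut, coloured by its best category, with the fewest positions matched by its fragment as a number, and a dot marks an unlisted gene. COL3A1 fills 4 columns with categories 3 and 4, while LAMA2, LAMC1 and MMP14 reach category 0 in 1 library each.

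miR-769-5p was listed in 10 libraries with 4 genes. ENO3, the muscle enolase of glycolysis, held most of its rows that name a gene. With miR-769-5p as partner, ENO3 was listed in 6 libraries and COL3A1 in the other 4. Over all small RNAs ENO3 was listed in 8 libraries, 2 of which also list COL3A1 and pair ENO3 with miR-95. GYS1, the muscle glycogen synthase, was paired with it in 2 of the COL3A1 libraries, and CCNI in Hampshire low MM replicate 1. At ENO3 the fragments matched 57 to 66 positions with an alignment score of 4.5, against 9 to 25 positions and a score of 4 at COL3A1. ENO3 rows were all of the shallower class and name the gene on strand -1, whereas COL3A1 is named on strand 1. Fragment abundance was 1 to 3 at ENO3 and 1 to 2 at COL3A1. The split is a description, and the part of depth in it was not tested. Hampshire low MM replicate 2 and Hampshire high MM replicate 1 listed no miR-769-5p row.

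**Figure D2:**
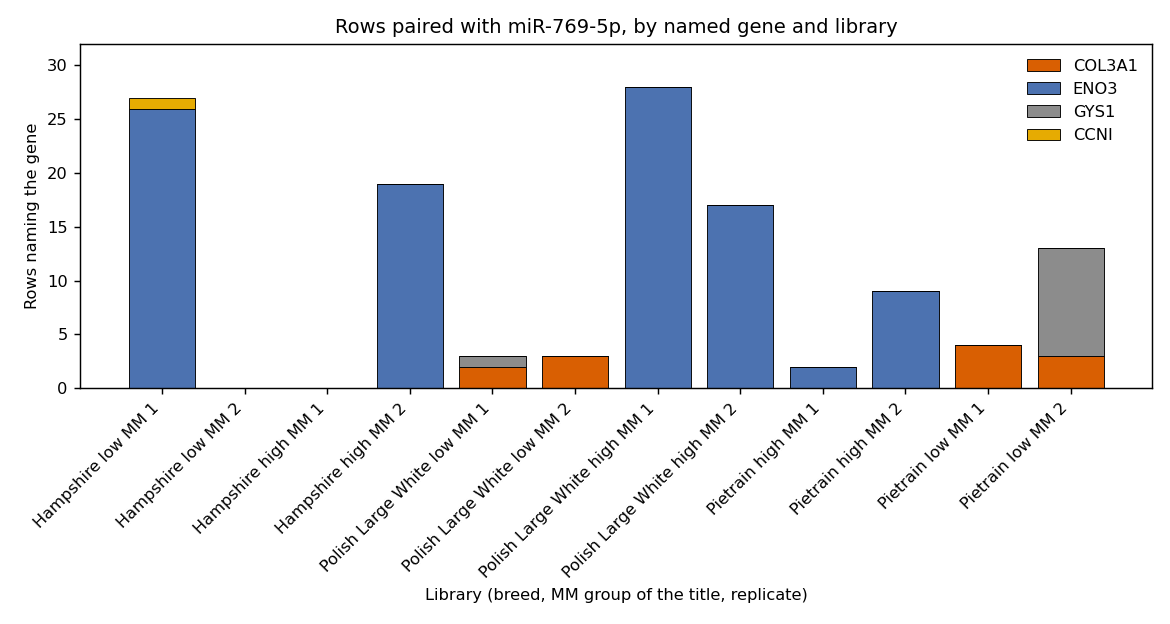
Bars give the number of rows that pair each named gene with miR-769-5p in each library, stacked by gene. COL3A1 appears with 2 to 4 rows in the 4 Pietrain and Polish Large White libraries titled low MM, and ENO3 with 2 to 28 rows in 6 other libraries.

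COL14A1 (ENSSSCG00000005997) was listed in 1 row, in Hampshire high MM replicate 2, at position 19070005 of chromosome 4. It was paired with the unnamed small RNA NA71/NA72 and had category 3, an alignment score of 3 and a deposited p of 0.01. Its fragment had an abundance of 20 and matched 473 positions. The same small RNA, abundance and number of matches recur at 255 positions in 129 genes of that library, so the row does not place the fragment in COL14A1 any more than in the others. Its normalized abundance was 0.0177. In the RefSeq gene order of Sscrofa11.1 COL14A1 adjoins DEPTOR. As the build of the positions is not named, it was not established that this one lies within COL14A1. If the build is Sscrofa11.1, the position lies in DEPTOR and not in COL14A1. The row is therefore uncertain as a COL14A1 cut. Unnamed small RNAs are numbered per library and cannot be matched between them.

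LAMA2 was listed in 3 libraries, at 5 positions on chromosome 1, under the identifiers ENSSSCG00000004207 and ENSSSCG00000033894. Position 33772195 was the only one found in more than 1 library. It was paired with miR-4331-5p in Hampshire high MM replicate 1, where it had category 0, an abundance of 20, 6 matching positions and a normalized abundance of 1.36. In Hampshire high MM replicate 2 it had category 2, an abundance of 20, 3 matching positions and a normalized abundance of 2.78, and the row gives the identifier without the name. Both libraries gave it an alignment score of 2 and a deposited p of 0. The alignment score was the lowest among the 5 genes. In Hampshire high MM replicate 1 the same small RNA, abundance and number of matches recur at 3 positions in 2 genes. In Hampshire high MM replicate 2 they stand at this position alone, although 4 positions share the abundance and matches over all small RNAs. miR-4331-5p itself was listed at 509 positions in 407 genes over all 12 libraries, with a median of 261 matching positions.

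The other LAMA2 positions were each seen in 1 library. Position 33766867 in Polish Large White low MM replicate 1 was paired with the unnamed NA21 and had category 1, an abundance of 2 and 8 matching positions. Position 34292266 in Hampshire high MM replicate 2 was paired with miR-4331-5p (category 2, abundance 100) and matched 1275 positions, and the same values recur at 18 positions in that library. Position 33124269 in Hampshire high MM replicate 1 was paired with miR-432-5p, matched 843 positions and recurs with the same values at 33 positions in 22 genes. Position 34987623 in Hampshire high MM replicate 2 was paired with NA31, matched 43 positions and recurs at 20 positions in 10 genes.

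Positions 34292266 and 34987623 are listed under ENSSSCG00000033894, in rows that also list the unnamed ENSSSCG00000033619, and the other 3 under ENSSSCG00000004207. The labels at the outer LAMA2 positions go against the order of genes. At 34987623 the strand 1 row names PTPRK, a receptor tyrosine phosphatase, while the strand -1 row names LAMA2. L3MBTL3 is listed at 33267159, between the LAMA2 positions 33124269 and 33772195. In the RefSeq gene order of assembly Sscrofa11.1, TMEM244 and ARHGAP18 stand between L3MBTL3 and LAMA2, and PTPRK follows LAMA2. The 33124269 and 34987623 rows are therefore uncertain as LAMA2 cuts. Each of the 3 libraries also lists LAMA2 at 33766867 or 33772195.

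Of the 3 libraries with LAMA2, 1 was low MM and 2 were high MM under the titles and the tab names alike, since no Pietrain library lists it (exact permutation p = 1, adjusted p = 1). By breed it stood at 2 of 4 Hampshire, 1 of 4 Polish Large White and 0 of 4 Pietrain libraries (exact permutation p = 0.709, adjusted p = 1). Both Hampshire libraries were those titled high MM. By printed names alone it was in these 2 libraries only.

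LAMC1 (ENSSSCG00000015555) was listed in Pietrain high MM replicate 2, a library called low MM by its tab name. Its 3 rows fell on position 124405530 of chromosome 9. Of these, 2 were paired with miR-27a (alignment score 3.5) and 1 with miR-27b-3p (score 4). These microRNAs are close relatives that share their seed, so the rows are 1 cut with alternative partners. The fragment had an abundance of 2, category 0 and 3 matching positions, with a normalized abundance of 0.0204 and a deposited p of 0.01 to 0.03. No other listed position in that library had the same values. In the same library both microRNAs were also paired with WBP1L at category 1 and 1 matching position. Over all libraries miR-27a was listed with 6 genes and miR-27b-3p with 5, both with PSMD2, a proteasome subunit, among them.

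MMP14 (ENSSSCG00000002039) was listed in 1 row, at position 76175840 of chromosome 7 in Polish Large White low MM replicate 2. It was paired with miR-125a at category 0, an alignment score of 3 and a deposited p of 0. The fragment had an abundance of 2 and matched 1 position, the only fragment of the 5 genes placed uniquely. Its normalized abundance was 0.0858. miR-125a was otherwise listed with CRYAB and HSPB2, a neighbouring pair of small heat shock genes, in 3 libraries, and with LPL, the lipoprotein lipase, in 1. At those genes it had an alignment score of 4.5 and 21 to 49 matching positions, so the MMP14 pairing was its best scored.

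Strand bears on which of these genes can be read as cut. Window positions run along strand 1, since 67.2% of the 6878 nuclear windows share their sum of start and cleavage position with another window, against 0.0291% for the difference. COL3A1 and LAMC1 are named on strand 1. COL14A1, LAMA2 and MMP14 are named on strand -1, that is, 12 of the 27 rows lie opposite to the direction in which positions run. For these 3 genes it is not established that their own transcript was cut.

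Counted by library and position, whatever the small RNA, 2016 cuts name a gene and 15 of them name 1 of the 5 matrix genes. The 15 had a median of 11 matching positions, against 64 over all. Fragments with 10 or fewer matches made up 7 of the 15 and 18.4% of all. Category 0 was given to 3 of the 15 and to 9.33% of all, and at the level of genes to 3 of 5 against 12.7% of the 1410 targets. A fragment matching 1 position was held by 1 of the 5 genes and by 4.89% of targets. Presence in at least 2 libraries was shown by 2 of the 5 and by 22.3% of targets. With 5 genes these are descriptions, and no test was made.

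**Figure D3:**
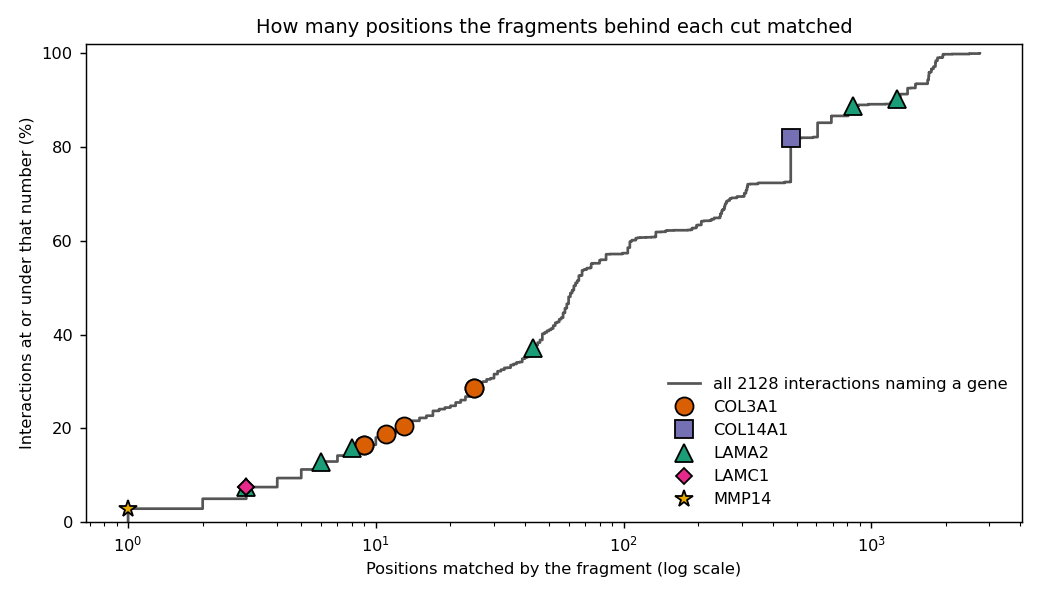
The line gives the share of all 2128 interactions naming a gene, here counted by library, small RNA and position (vertical axis, percent) whose fragment matched at most the number of positions on the horizontal axis (log scale), and symbols mark the cuts of the 5 genes. MMP14 sits at 1 position and LAMC1 at 3, where a LAMA2 cut lies behind it, while COL14A1 and the LAMA2 cuts of 843 and 1275 positions stand at the right.

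Fragment abundance separates the cuts as well. COL3A1, LAMC1, MMP14 and the LAMA2 position of Polish Large White had abundances of 1 or 2. COL14A1 and the LAMA2 positions of Hampshire had 20 or 100. Of all listed abundances of 20 or more, 80.2% are multiples of 20. What sets this step is not stated, so abundances were not compared between these cuts.

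Of 174 genes in 8 lists of matrix genes by role, 21 were listed (12.1%), the 5 above and 16 others. Of the 20645 protein-coding symbols of RefSeq for Sscrofa11.1, 6.09% were listed. The lists were drawn up with earlier results known, and the shares were not tested. Laminins and basement membrane genes had the highest share, 6 of 15. LAMB2, a laminin beta chain, was paired with miR-345-3p at position 31739045 in Polish Large White low MM replicate 2 and Pietrain low MM replicate 2, with 9 and 6 matching positions. The first had category 2 and an abundance of 2, the second category 4 and an abundance of 1. LAMB2 is named on strand -1, so it is not established that its own transcript was cut. NID1, the nidogen that links laminin to collagen IV, was paired with miR-381-3p at 55346575 in Pietrain high MM replicate 2 and Pietrain low MM replicate 1, with 9 and 6 matching positions. Both NID1 cuts had category 4 and an abundance of 1, evidence as thin as at COL3A1. LAMA1 was listed in 1 library with 607 matching positions.

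Among fibrillar collagens 2 of 9 were listed, COL3A1 and COL5A3, and among other collagens 3 of 26, COL14A1, COL4A5 and COL6A6. COL6A6 in Hampshire high MM replicate 2 had the same 473 matching positions and the same NA71/NA72 as COL14A1. Of the matrix proteases 3 of 26 were listed. MMP11, a secreted metalloprotease, had the same position 49914488 at category 0 and 1 matching position in Pietrain low MM replicate 2 and Polish Large White low MM replicate 2, with unnamed small RNAs. Both rows name it on strand -1, so it is not established that its own transcript was cut. ADAMTS9 was in 1 library. Matrix receptors gave 5 of 26, DMD in 2 libraries and DAG1, SGCD, SSPN and ITGA5 in 1 each. Collagen processing gave 2 of 23, CRTAP and COLGALT1. COL5A3, COL6A6, ADAMTS9, DMD, SGCD, SSPN, ITGA5 and COLGALT1 are likewise named on strand -1, and COL4A5, DAG1 and CRTAP on strand 1. None of the 8 protease inhibitors on the list and none of its 41 proteoglycans and glycoproteins was listed, TIMP1, DCN, FN1 and SPARC among them. These zeros depend on the choice of genes. The tables do list OMD, a small leucine-rich proteoglycan, the hemicentins HMCN1 and HMCN2 and the integrin ITGB6, which are not on the lists, in 2 libraries each.

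**Figure D4:**
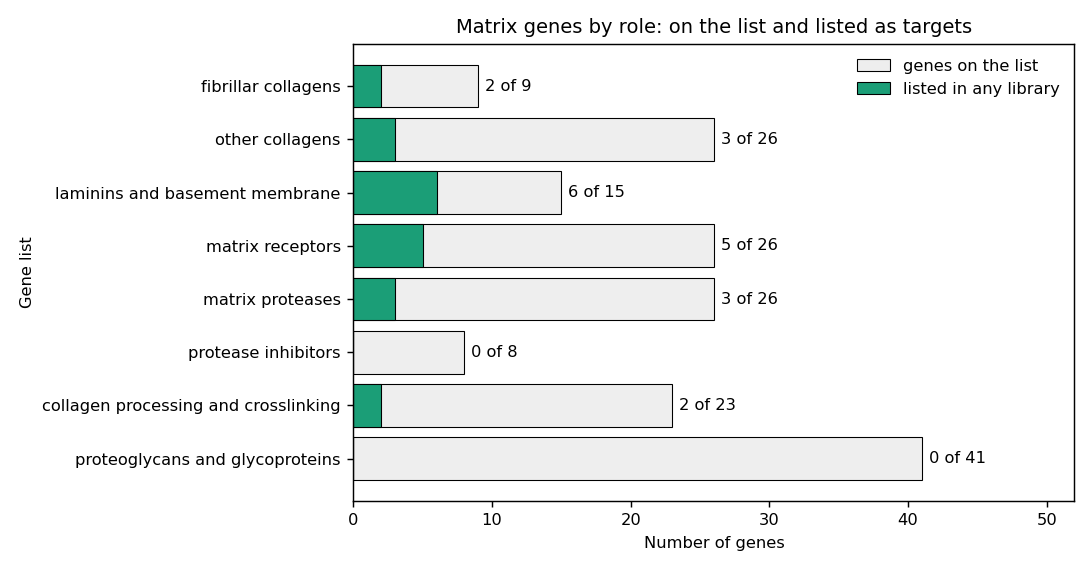
Grey bars give the number of genes on each list and green bars the number listed in any library. Laminins and basement membrane genes reach 6 of 15, and protease inhibitors and proteoglycans and glycoproteins stand at 0.

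Of the 16 other matrix genes, 3 (LAMB2, NID1 and MMP11) had a position in 2 libraries, and 10 were paired with unnamed small RNAs alone. In the whole matrix list 7 genes were listed in 2 or more libraries and could be tested. None passed between MM groups or between breeds, and 0 had an unadjusted exact permutation p under 0.05 in either. With so few libraries listing them, none of the 7 could have reached that between MM groups. Between breeds COL3A1 alone could have, so the zeros are set largely by the design. By the titles 3 were in more low-MM libraries, 1 in more high-MM libraries and 3 in equal numbers. By the tab names 0 were in more low-MM libraries, 2 in more high-MM libraries and 5 in equal numbers. By the titles their median difference, high minus low, was 0 percentage points of libraries, against -16.7 for all 310 targets tested. Matrix genes made up 0% to 3.73% of the targets of a library, the highest in Polish Large White high MM replicate 2, where no gene of the main 5 was listed. All 5 matrix genes of that library were paired with 1 unnamed small RNA, NA26, on fragments with 39 to 607 matching positions.

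The genes whose libraries overlapped most with those of COL3A1 were PM20D2 (Jaccard index 0.80, 5 libraries), ZNF211 and ASB12 (0.75 each, 3 libraries), over 12 libraries. PM20D2 and ZNF211 rows were paired with other small RNAs, miR-4331-5p among them. For LAMA2 they were CNTNAP2 (0.75, 4 libraries), PGAM2, the muscle phosphoglycerate mutase, and FKBP11 (0.667 each, 2 libraries).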

How the data were processed

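RNA of 12 pig loin samples, with RIN values above 7, went into PARE libraries, per the labels' protocols. The submitters' processing notes name CASAVA 1.8.2 and FastQC. Aligner, build, annotation, small RNA set and row filter were not given in the sources used here. Per the file headers the deposited tables hold PAREsnip output: a category and an alignment score, a fragment abundance treated here as a score, a p-value that the authors gave to 2 decimals, and weighted and normalized abundances, which are deposited signal values. The series' design text speaks of chickens, but every sample is labelled pig.

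Read depth is unknown, so no interval is given. The software was Python 3.11.15 with pandas 2.3.3, numpy 2.4.6 and, for plots, matplotlib 3.10.9. Gene names differing in case were joined, and a name was carried to rows listing its identifier alone. Matching positions are abundance divided by weighted abundance, rounded. Normalization factors under 0.15 were called deeper. Presence of targets in 2 to 10 libraries was tested by exact permutation, within breeds for MM and over all partitions for breeds, with Benjamini-Hochberg adjustment at 0.05 over all 310, and the code was tested on simulated data. The members, the lists and the rules for named genes were chosen with earlier results of these data known. Named genes were the 5 members, the 3 genes with the most similar set of libraries for each member in 2 or more, and up to 3 per list of matrix genes by libraries listing them; further matrix genes, targets of the members' small RNAs and 4 matrix genes outside the lists were named after their values were seen. Alternatives were groups by tab name, omission of Pietrain or of single libraries, replicate blocks, category, matching and p filters and shallower rows, and, added after the data had been seen, printed names only and strand 1 only. No sequence is printed, since none was in the files used here. The values of 1 listed matrix gene are not reported here.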

Additional observations from a re-analysis of the deposited data

How the results depend on the processing

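The share of high-MM minus low-MM libraries listing COL3A1 was -66.7 percentage points by the titles and 0 by the tab names, where the Pietrain groups are exchanged. Without Pietrain it was -50 (exact permutation p = 0.333). Leaving out each library in turn gave -80 to -60 for COL3A1 and 3.33 to 33.3 for LAMA2 (16.7 with all libraries), with exact permutation p from 0.0278 to 0.0556 (adjusted 0.7 to 1) and from 0.333 to 1. The value of 0.0278 arose only without Hampshire low MM replicate 1 or 2, neither of which lists COL3A1. The low-MM group is then the smaller, so listing in high-MM libraries alone would give a smaller difference. The lower p thus comes from unequal groups, as the opposite pattern was not counted. The range between breeds was 50 to 66.7 and 33.3 to 66.7 percentage points. LAMA2 fell to 3.33 without Hampshire high MM replicate 1 or 2, and rose to 33.3 without Polish Large White low MM replicate 1, by printed names alone, and with a deposited p of 0.02 or less. No alternative gave either gene an adjusted p under 0.05, and 0 targets were called under any of those run. Neither gene could have passed adjustment in these runs, so they do not show that the absence of a difference is stable. Under the replicate block (64 relabellings) COL3A1 kept -66.7 with an exact permutation p of 0.125, the lowest it could take there. The replicate numbers follow the order of the titles, and the labels tie no common litter or batch to them. Deviations of same-numbered libraries correlated at -0.0311 (Hampshire), 0.0269 (Polish Large White) and -0.0211 (Pietrain) over 1410 targets. As 22.3% of targets were in at least 2 libraries, these correlations cannot decide whether same-numbered libraries are paired. COL3A1 had no value with categories 0 to 2 or fragments matching 1 position, where it is not listed, and was in 1 library at a deposited p of 0.02 or less. LAMA2 had none with fragments matching 1 position or with names on strand 1. The design allows no MM p below 0.00926, which is too high for a single target to pass adjustment over 310.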
